A study of Rattus norvegicus with 4 samples.

Results

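Transcripts of 7 GABA-A receptor subunits were followed in the rat hippocampus after voluntary running: Gabra2, Gabra3, Gabra4 and Gabra5 of the alpha class, Gabrb1 and Gabrb2 of the beta class, and Gabrd, the delta subunit. Members were found by matching the accession of each noncontrol spot to a gene symbol, and 6 of the 7 had a matched probe, out of 8899 genes with a matched probe on the array. No probe was matched to Gabra2, so its transcript was not analysed here. Male Wistar rats, 10 weeks old at the start, were kept sedentary (Sed, 10 rats), ran in a wheel without load (WR, 8 rats) or ran in a wheel with resistance (RWR, 8 rats) for 4 weeks. In RWR the load was 4.5 g in the first week and reached 30% of body weight at the end. Equal amounts of hippocampal RNA from each replicate were pooled within each group. By the RNA amounts in the methods of the study, a pool held fewer replicates than its group had rats. Whether a replicate was a single rat is not stated in the sources used here, so a pool may hold fewer rats than its group. The pools of Sed × WR were hybridized in 2 colours to chips 1 and 2 and those of Sed × RWR to chips 3 and 4, with the dyes swapped within each pair. The running pool was labelled with Cy5 on chips 1 and 3 and with Cy3 on chips 2 and 4. The chips of a pair repeat the same pools, so each comparison holds 1 biological replicate. No test between conditions was possible, no error across rats can be given, and precision is limited by how few chips there are.

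GABA-A receptors are ligand-gated chloride channels built from several subunits around a pore, and they carry most fast inhibition in the hippocampus. Alpha subunits shape the binding of GABA and of benzodiazepines, beta subunits are needed for assembly and form part of the GABA site, and a gamma subunit anchors many receptors at synapses. Receptors with alpha4 and delta in dentate granule cells, and with alpha5 on pyramidal cell dendrites, sit largely outside synapses and pass a tonic current. Several subunit genes lie side by side in the rat genome. By order in the RefSeq table of the GRCr8 assembly, Gabrb1 and Gabra4 are neighbours, Gabra2 and Gabrg1 stand close by on the same chromosome, Gabra5 stands next to Gabrg3, Gabrb2 follows Gabra6, and Gabra3 lies in the region of Gabre and Gabrq on chromosome X. Gabrd stands apart from the other subunits.

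The RefSeq promoter table (GRCr8) held 6 of the 7 genes, all but Gabra2. The 250 bases before the annotated start are printed for 4 of them, each 5′ to 3′ on the gene's own strand. Gabra3 and Gabra4 are shown because their ratios below were furthest from 0 in RWR, in opposite directions, and Gabrb1 and Gabrb2 because their windows share a rare motif. Capitals mark every match, on either strand, to 4 searched motifs: the letters TATAAA for the box named after them, CCAAT likewise, GGGCGG for the GC box, and CGCATGCG for the core of the site of nuclear respiratory factor 1 (NRF1), a regulator of genes of energy metabolism. The windows are chrX:155543871-155544120 on the minus strand for Gabra3, chr14:36944497-36944746 on the plus strand for Gabra4, chr14:36902894-36903143 on the minus strand for Gabrb1 and chr10:27439543-27439792 on the plus strand for Gabrb2.
Gabra3: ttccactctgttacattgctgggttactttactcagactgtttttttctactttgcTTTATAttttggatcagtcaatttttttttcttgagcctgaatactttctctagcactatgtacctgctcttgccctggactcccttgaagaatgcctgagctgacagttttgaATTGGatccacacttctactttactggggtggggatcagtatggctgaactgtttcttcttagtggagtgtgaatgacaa
Gabra4: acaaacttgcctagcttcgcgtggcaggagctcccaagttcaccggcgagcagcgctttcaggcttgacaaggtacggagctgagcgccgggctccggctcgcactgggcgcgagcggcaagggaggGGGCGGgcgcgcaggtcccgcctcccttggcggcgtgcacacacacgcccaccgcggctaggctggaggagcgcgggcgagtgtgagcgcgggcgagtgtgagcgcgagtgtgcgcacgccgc
Gabrb1: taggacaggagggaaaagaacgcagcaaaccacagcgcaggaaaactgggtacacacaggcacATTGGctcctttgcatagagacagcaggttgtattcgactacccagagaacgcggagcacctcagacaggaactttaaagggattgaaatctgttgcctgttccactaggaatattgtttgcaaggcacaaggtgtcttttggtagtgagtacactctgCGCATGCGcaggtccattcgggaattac
Gabrb2: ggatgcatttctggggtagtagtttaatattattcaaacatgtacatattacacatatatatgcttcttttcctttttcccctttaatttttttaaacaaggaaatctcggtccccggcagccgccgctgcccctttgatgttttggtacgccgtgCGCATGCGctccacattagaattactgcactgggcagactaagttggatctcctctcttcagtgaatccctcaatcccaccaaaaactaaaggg

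Motif shares were counted over 300 bases, from 250 before to 50 after the start, in 33469 promoters of the table. The NRF1 core occurred in Gabrb1 and Gabrb2, 2 of 6 members, and in 1.66% of all promoters. It began 28 bases before the start in Gabrb1 and 94 bases before it in Gabrb2. A TATA box was found in Gabra3 (14.2% of all promoters), a CCAAT box in Gabra3 and Gabrb1 (37.5%), and a GC box in Gabra4, Gabra5 and Gabrd (33.1%). The cyclic AMP response element TGACGTCA (1.83% of all promoters) and its shorter core TGACG, which the full element contains (21.2%), had no match in the window of any member. Base composition divided the members. The windows of Gabra4, Gabra5 and Gabrd had GC contents of 70.7%, 76.3% and 73.7% with 35, 42 and 40 CpG dinucleotides, whereas Gabra3 had 39.3% with 0 CpG, Gabrb1 49.3% with 11 and Gabrb2 44.0% with 9. The median over all promoters was 51.7%. A match is a run of letters and no evidence that a factor binds there, and no match says only that these letters are not in the window.

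The chips and the tissue were checked first. By the flag of the scanner software, all 6 members exceeded background clearly (well above background) in either dye of all 4 chips. This held for 24953 of 41003 probes with a value on every chip. After turning each ratio to running over sedentary, the chips of a swapped pair correlated negatively across these 24953 probes (r = -0.677 for chips 1 and 2, r = -0.581 for chips 3 and 4), whereas chips of the same dye orientation correlated positively (r = 0.759 for chips 1 and 3, r = 0.733 for chips 2 and 4). These are correlations across probes, which are not independent replicates. They show a dye part beside the running part over the probes as a whole, and not its size for a single probe. The mean of a swapped pair cancels such an effect where it is equal on both chips. Of the marker lists, those of neurons (5 of 6 with a probe), hippocampal principal cells (4 of 8), astrocytes (5 of 5), oligodendrocytes (5 of 5) and microglia (5 of 5) were well above background throughout wherever a probe was matched. Gabra6, the cerebellar granule cell subunit, was well above background in neither dye on any chip, and 1 of 4 cerebellar markers with a probe was so on all chips. Of choroid plexus markers 5 of 6 had a probe, 2 were well above background on all chips and Kl was so in Sed on none. Their summed signal was 609 in Sed and 374 in WR, and 680.0 in Sed and 733 in RWR. Among them Ttr, transthyretin, was called below in WR by the rule described later, which called 0.0317% of all probes there. Its log2 ratios were -0.72 and -0.99 in WR, and 0.20 and 0.042 in RWR. Of 6 pituitary markers 4 were well above background on all chips, with a summed signal over all 6 of 794 in Sed and 761 in WR, and 910.1 in Sed and 922 in RWR. Prl, prolactin, was called below in RWR, where 0.0585% of all probes were called. It was well above background in only 4 of 8 channels, so no fold is given. Markers of thalamus (3 of 5 with a probe, 2 well above background on all chips) summed to 1298 in Sed and 1214 in WR, and to 1360.3 in Sed and 1436 in RWR, and those of striatum (5 of 5, 2) to 263 in Sed and 238 in WR, and to 303 in Sed and 268 in RWR. Markers of oligodendrocytes had a summed signal of 64078 in Sed and 61026 in WR, and of 69479 in Sed and 62683 in RWR, and those of hippocampal principal cells 33297 in Sed and 34297 in WR, and 32965 in Sed and 36599 in RWR. In RWR the principal cell markers had log2 ratios of 0.17 for Nrgn, -0.027 for Camk2a, 0.039 for Neurod2 and 0.044 for Wfs1. The part of all these markers in the subunit values was not tested. In bulk tissue, fewer cells of a type and less RNA per cell cannot be told apart.

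Gabra3 encodes alpha3, a subunit of benzodiazepine-sensitive receptors. Its processed signal, the background-subtracted and dye-normalized intensity of a spot, was 83.9 in WR and 84.1 in Sed on chip 1, and 60.7 in WR and 79.6 in Sed on chip 2. It was 76.0 in RWR and 79.2 in Sed on chip 3, and 59.0 in RWR and 80.5 in Sed on chip 4. The Sed pool varied little, between 79.2 and 84.1, and each running pool lay furthest below it where it carried Cy3. In Cy5 the running pool was level with Sed on chip 1 and slightly below it on chip 3. The log2 ratios of running over Sed on chips 1 to 4 were -0.0036, -0.39, -0.059 and -0.45. The mean of the pair was -0.20 for WR (0.872-fold) and -0.25 for RWR (0.839-fold). Each chip lay 0.19 from the mean of its pair in both comparisons, about the size of the means. This distance, called the chip deviation here, carries the dye effect and the technical spread. The error of the mean, propagated from the error model of the scanner software, was 0.17 for WR and 0.16 for RWR. The RWR mean stood at the 1.43 percentile and the WR mean at the 2.61 percentile of the 24953 probes well above background. Gabra3 was a dim probe, and the means were smaller under other processing. With normexp correction and loess they were -0.059 for WR and -0.038 for RWR, and with no background correction and loess -0.042 and -0.053. Both settings change the normalization together with the background step, so the effects of these steps cannot be told apart.

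Gabra4 encodes alpha4, the partner of delta in extrasynaptic receptors. Its signal was 666 in WR and 627 in Sed on chip 1, and 628 in WR and 562 in Sed on chip 2. It was 751 in RWR and 690.2 in Sed on chip 3, and 601 in RWR and 537 in Sed on chip 4. On every chip the running pool was brighter than the Sed pool beside it, in either dye, although the ranges over chips overlapped. The log2 ratios on chips 1 to 4 were 0.086, 0.16, 0.12 and 0.16. The mean was 0.12 for WR, a signal 8.95% higher than in Sed, and 0.14 for RWR, 10.3% higher. Gabra4 had the smallest chip deviations of the 6 members, 0.038 for WR and 0.019 for RWR, so its means exceeded the chip-to-chip spread. They did not exceed the error of the mean from the error model, 0.14 in both comparisons. They stood at the 91.3 and 92.7 percentiles of probes well above background.

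Gabra5 encodes alpha5, the subunit of tonic inhibition on pyramidal cells. Its signal was 535 in WR and 553 in Sed on chip 1, 519 and 483 on chip 2, 587 in RWR and 590.3 in Sed on chip 3, and 527 and 477 on chip 4. The pool in Cy3 was the brighter one on all 4 chips, whichever pool it was. The log2 ratios were -0.048, 0.10, -0.0073 and 0.14, which gave means of 0.027 for WR and 0.067 for RWR, with chip deviations of 0.075 and 0.074. Both means were smaller than the chip deviation and than the error of the mean, 0.14 in each comparison.

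Gabrb1 encodes beta1. Its signal was 5879 in WR and 5313 in Sed on chip 1, 4725 and 5291 on chip 2, 6144 in RWR and 5357 in Sed on chip 3, and 4691 and 5342 on chip 4. The 4 values of the Sed pool lay close together, between 5291 and 5357, and the running pool lay above them in Cy5 and below them in Cy3. The log2 ratios were 0.15, -0.16, 0.20 and -0.19. The pair means were -0.0086 for WR and 0.0050 for RWR, and the chip deviations 0.15 and 0.19. A single chip of this gene would have given a ratio of either sign.

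Gabrb2 encodes beta2, a beta subunit found widely in brain receptors. Its signal was 71.7 in WR and 81.5 in Sed on chip 1, and 61.3 in WR and 74.2 in Sed on chip 2. It was 80.4 in RWR and 87.2 in Sed on chip 3, and 68.8 in RWR and 66.7 in Sed on chip 4. WR was dimmer than Sed in both dyes, whereas RWR was dimmer on chip 3 and brighter on chip 4. The log2 ratios were -0.18, -0.28, -0.12 and 0.044. The mean was -0.23 for WR (0.853-fold, the 1.66 percentile of probes well above background) with a chip deviation of 0.045 and an error of 0.18. For RWR it was -0.036 with a chip deviation of 0.080 and an error of 0.17. Over the other settings of background and normalization the WR mean of Gabrb2 ranged from -0.27 to -0.17 and the RWR mean from -0.036 to 0.043. This probe was dim, and its error on single chips reached 0.26, against at most 0.21 for members other than Gabra3 and Gabrb2.

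Gabrd encodes delta, the subunit that marks extrasynaptic receptors of dentate granule cells. Its signal was 2242 in WR and 2282 in Sed on chip 1, 2190.4 and 2025 on chip 2, 2373 in RWR and 2535 in Sed on chip 3, and 2184 and 2072 on chip 4. As for Gabra5, the pool in Cy3 was the brighter one on each chip. The log2 ratios were -0.026, 0.11, -0.096 and 0.076, with means of 0.044 for WR and -0.0099 for RWR and chip deviations of 0.069 and 0.086. The means of its partner Gabra4 were higher in both comparisons, but the difference between these subunits was not tested.

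**Figure D1:**
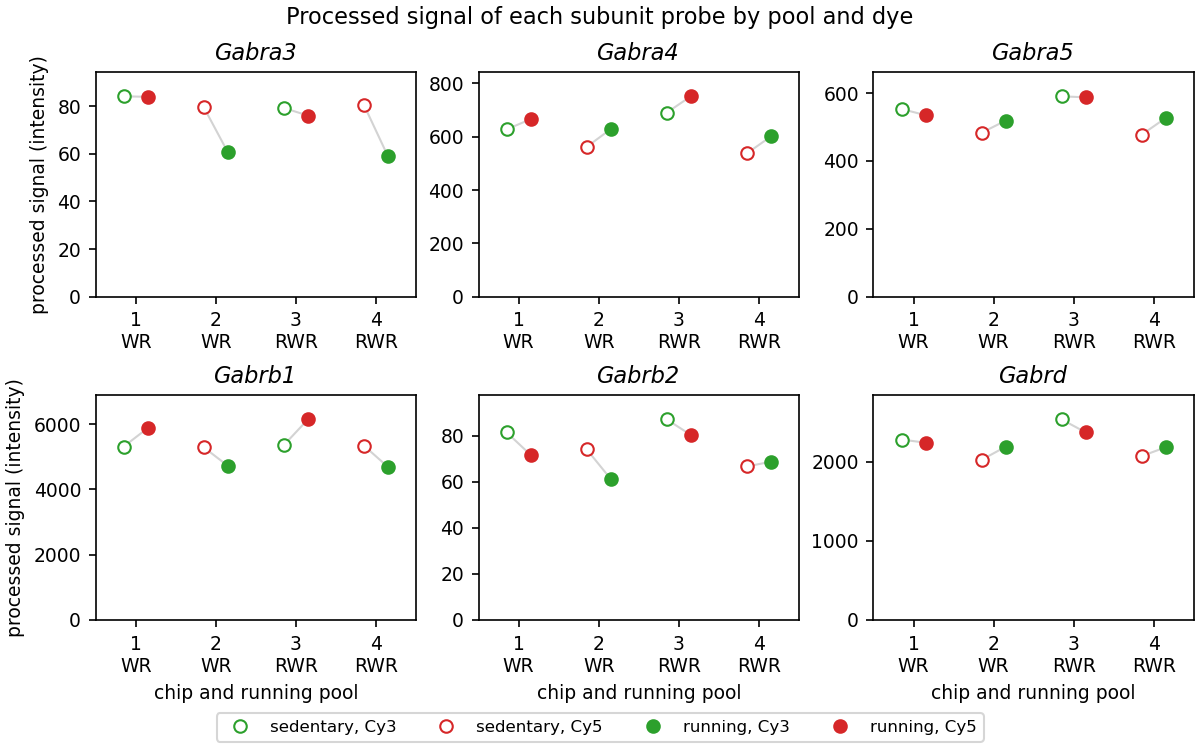
Processed signal (intensity, linear axis from 0) of the probe of each of 6 subunits on chips 1 to 4, with the Sed pool as open and the running pool as filled circles, green for Cy3 and red for Cy5. For Gabra4 the running pool is the upper point on every chip, for Gabrb1 the upper point is always the pool in Cy5, and for Gabra5 and Gabrd always the pool in Cy3.

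**Figure D2:**
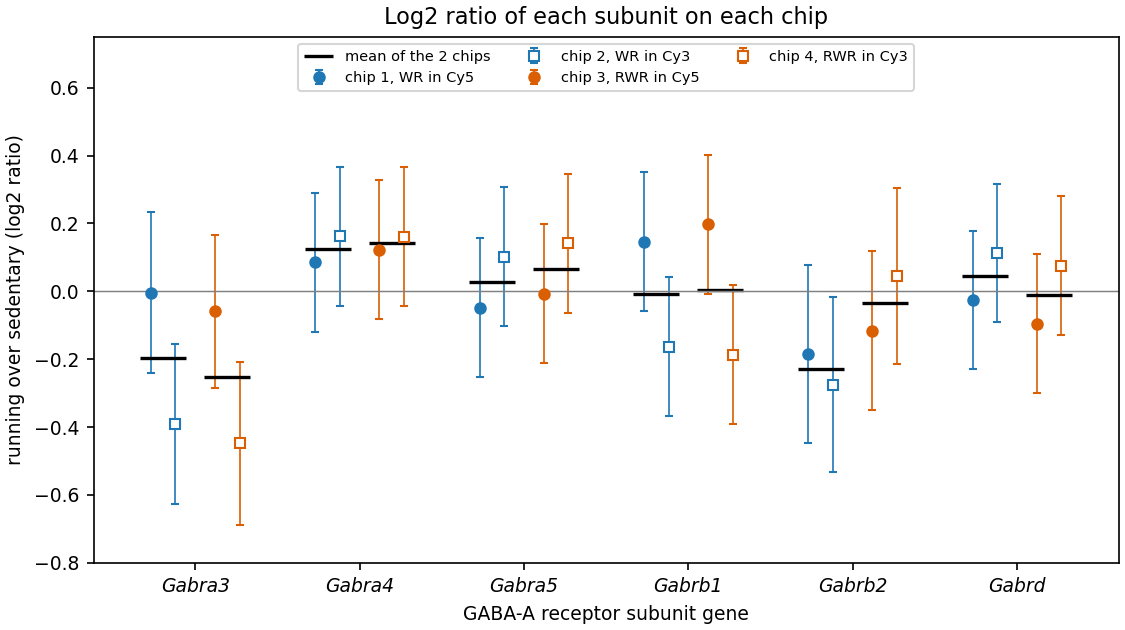
Log2 ratio of running over sedentary for each subunit on each chip (blue WR, orange RWR, filled circles where the running pool carried Cy5, open squares where it carried Cy3), with the error of the scanner software's model as bars and the mean of each swapped pair as a black line. Gabra4 is above 0 and Gabra3 below 0 on each chip, and the error bars, 0.20 to 0.26, cross 0 for all but 3 of 24 values.

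Over the 6 measured members the median log2 ratio was 0.0092 for WR (range -0.23 to 0.12) and -0.0025 for RWR (range -0.25 to 0.14). The median over all 41003 probes was 0.0049 for WR and -0.0019 for RWR. Of the probes well above background, 5% lay below -0.15 and 5% above 0.16 in WR, and 5% below -0.16 and 5% above 0.17 in RWR. The median of the members thus lay near 0, while Gabra3 lay under the lower of these limits in both comparisons and Gabrb2 in WR. These limits, and the percentiles given above, were taken over probes of any brightness. Gabra3 and Gabrb2 were the dim members with the larger errors, and how far probes of like signal spread was not tested. With normexp correction and loess the means of Gabra3 were -0.059 in WR and -0.038 in RWR. The mean was further from 0 than the error of the mean for Gabra3 and Gabrb2 in WR, and for Gabra3 in RWR. It was further from 0 than the chip deviation for Gabra3, Gabra4 and Gabrb2 in WR, and for Gabra3 and Gabra4 in RWR.

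The call rule combined the fold limits and the p limit in the methods of the study. Both chips of a pair had to show more than 1.5-fold or less than 0.75-fold, each with an error-model p under 0.01, and applying the p limit to both chips is a choice made here. The rule called 0 of 6 members in WR, where 0.0317% of all probes were called, and 0 of 6 in RWR, where 0.0585% were called. Without the p limit it also called 0 of 6 in either comparison, against 0.549% and 1.48% of all probes. The p limit on both chips left 13 probes in WR and 24 in RWR, against 225 and 608 without it. The gene counts that the study reported lay near those without the p limit. Of 24 chip values of members, 0 had an error-model p under 0.01, and the lowest was 0.061, for Gabra3 on chip 4. That p describes the spot on a single chip and not the condition. In WR, 3 of 6 members lay on the same side of 0 on both chips (Gabra4 above, Gabra3 and Gabrb2 below), where 28.4% of the probes well above background did so. In RWR it was 2 of 6 (Gabra4 above, Gabra3 below), against 32.8%. With 6 members, nothing particular to the receptor is read from these shares.

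**Figure D3:**
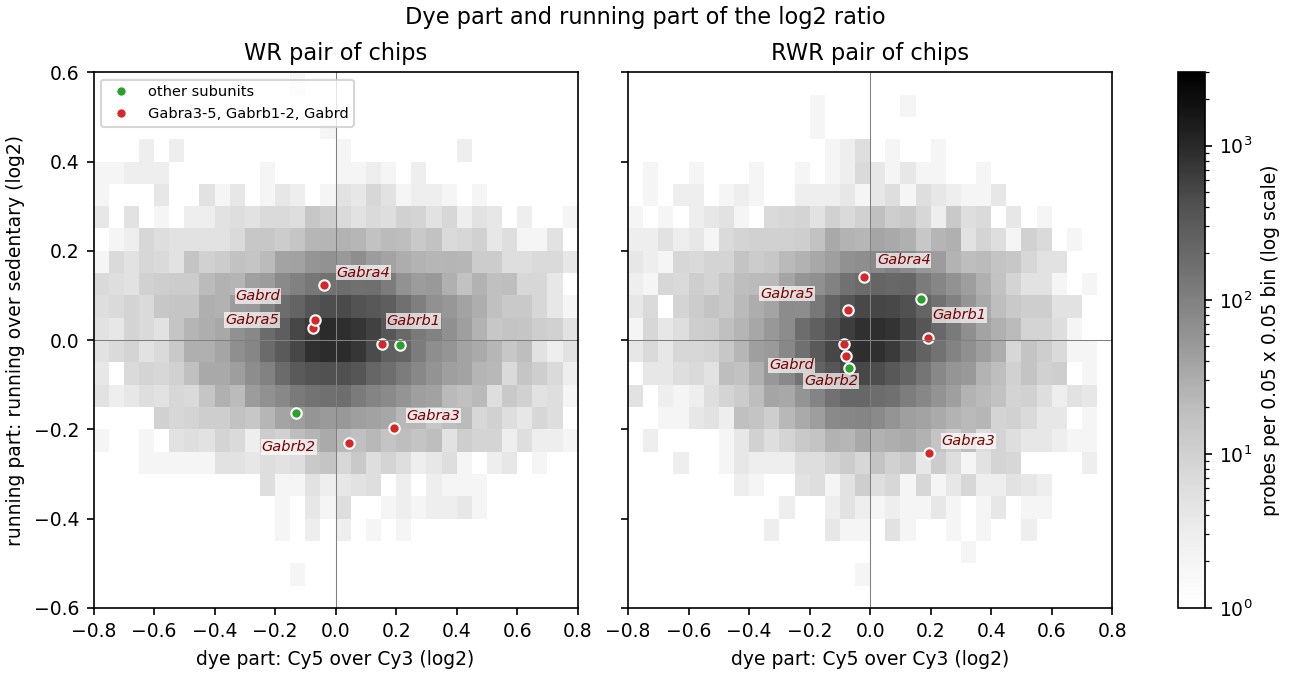
Running part (mean of the swapped pair, running over sedentary) against dye part (Cy5 over Cy3) of the log2 ratio for the WR pair and the RWR pair, with the number of the 24953 probes well above background per bin in grey on a log scale, the 6 members in red and Gabrg1 and Gabrq in green. Gabra3 and Gabrb1 have dye parts of 0.15 to 0.19 in both pairs, and Gabra4 lies close to 0 on the dye axis.

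Each ratio was split into a running part and a dye part. The dye part, which is the chip deviation signed as Cy5 over Cy3, was positive in both pairs for Gabra3 (0.19 and 0.19) and Gabrb1 (0.15 and 0.19). It was negative in both pairs for Gabra4 (-0.038 and -0.019), Gabra5 (-0.075 and -0.074) and Gabrd (-0.069 and -0.086), and of opposite signs for Gabrb2 (0.045 and -0.080). For Gabrb1, Gabra5 and Gabrd the dye part was larger in size than the running part in both pairs. For Gabra4, Gabra5, Gabrd and Gabrb2 it was smaller in size than the error of the mean in both pairs, so no difference between these members is read from it. The median size of the dye part over the probes well above background was 0.10 in WR and 0.10 in RWR. Gabra3 and Gabrb1 lay above it in both pairs, and the other 4 members below it.

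The running modes were compared between chips of the same dye orientation, chip 3 with chip 1 and chip 4 with chip 2. Both comparisons had the same sedentary pool as their control, with 3 pools in all. The WR and RWR ratios are therefore not independent, and a gene on the same side of 0 in both is no repeat finding. Gabrb2 had the largest difference, 0.069 and 0.32 between the chips of each orientation, with a mean of 0.19 and an error of 0.25. Its RWR mean was thus the higher one, by less than the error. Gabra3 differed by -0.056 and -0.058 (mean -0.057, error 0.23). With loess this mean of Gabra3 turned to 0.021 after normexp correction and was -0.011 without background correction. The other differences were small. Gabra4 differed by 0.037 and -0.0011 (mean 0.018), Gabra5 by 0.041 and 0.039 (mean 0.040), Gabrb1 by 0.051 and -0.024 (mean 0.014) and Gabrd by -0.070 and -0.037 (mean -0.054). For none of the 6 members did the difference exceed its error. The median difference of the members was 0.016, against -0.011 over all probes. On both orientations 4 of 6 members lay on the same side of 0, where 57% of probes well above background did. Between chips of one orientation the values of Gabra3 nearly coincide, whereas within each swapped pair they did not.

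**Figure D4:**
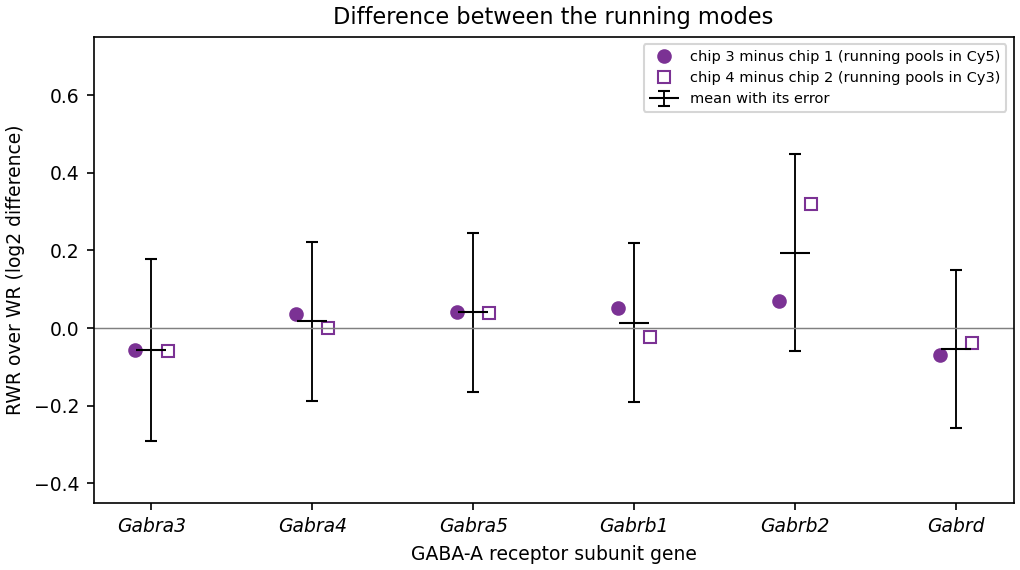
Difference of the log2 ratios of RWR and WR for each subunit, from chips 3 and 1 (circles, running pools in Cy5) and chips 4 and 2 (squares, running pools in Cy3), with the mean as a line and the error of the mean as a bar. All 6 bars span 0, and Gabrb2 has the highest mean, 0.19.

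Of 9 other GABA-A subunits taken for comparison, all had a probe and 2 passed the background flag in either dye of all chips, Gabrg1 and Gabrq. Gabrg1, a gamma subunit, had log2 ratios of -0.29, -0.031, -0.13 and 0.0080 on chips 1 to 4, with a WR mean of -0.16 and an error of 0.15, and an RWR mean of -0.063. Gabrq, the theta subunit, had 0.20, -0.22, 0.26 and -0.078, which turned sign with the dyes. Among these subunits measurable in a pair, 0 of 2 were above and 1 of 2 below 0 on both chips in WR, and 0 of 3 were above and 0 of 3 below in RWR. Among probes well above background on all chips, 14.5% were above and 13.9% below in WR, and 16.7% above and 16.2% below in RWR. The subunits were filtered on the chips of the pair alone, a looser filter that adds Gabrr2 in RWR. The call rule called 0 of the 9 in either comparison, where 0.0317% and 0.0585% of all probes were called.

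Gabra6 and Gabre were well above background in neither dye on any chip, and Gabrp and Gabrr1 in 1 of 8 channels. The rho subunits Gabrr3 and Gabrr2, known from the retina, were so in 4 and 7 of 8 channels. No fold is given for Gabra6, Gabre, Gabrp and Gabrr1. Gabrg3, well above background in 5 of 8 channels, had signals of 26.3 in WR and 7.56 in Sed on chip 1, 9.92 and 21.5 on chip 2, 36.0 in RWR and 19.4 in Sed on chip 3, and 15.4 and 34.6 on chip 4. The brighter channel was Cy5 each time, and the running pool was on the high side on chips 1 and 3 and on the low side on chips 2 and 4.

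Proteins that place these receptors were taken as further lists. Of 23 genes for anchoring, assembly and trafficking, 17 had a probe, all well above background, and 0 were called in either comparison, where 0.0317% and 0.0585% of all probes were called. In WR 1 was above and 3 were below 0 on both chips (14.5% and 13.9% of probes well above background), and in RWR 2 were above and 3 below (16.7% and 16.2%). The list medians were 0.017 and -0.029. Nsf, the ATPase of vesicle fusion that also handles receptor traffic, had -0.038 and -0.066 in WR and -0.19 and -0.087 in RWR, with means of -0.052 and -0.14. Zdhhc3, a palmitoyltransferase that modifies receptor subunits, had 0.059 and 0.090 in WR, and Lhfpl4, an auxiliary protein of receptors at inhibitory synapses, 0.069 and 0.078 in RWR. The errors of these means were 0.15 each, so that none exceeded its error.

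Genes of chloride and bicarbonate balance set the driving force of the channel. They were counted together with Dbi, the endozepine precursor, and Tspo, a protein that binds endozepines. Of these 9 genes, 6 had a probe and 0 were called (0.0317% of all probes in WR and 0.0585% in RWR). In WR 0 were above and 1 was below 0 on both chips, against 14.5% and 13.9% of probes well above background, and in RWR 0 were above and 2 below, against 16.7% and 16.2%. Car2, carbonic anhydrase 2, had -0.15 and -0.016 in WR and -0.16 and -0.017 in RWR, with means of -0.082 and -0.086. Clcn2, a chloride channel, had -0.057 and -0.033 in RWR, with a mean of -0.045. The error of each of these means was 0.14. The 2 genes of the metabotropic GABA-B receptor lay on opposite sides of 0 on the chips of each pair, with medians of 0.023 for WR and -0.0048 for RWR.

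Averaged over WR and RWR, Gabra3 had the log2 ratio furthest from 0 of the 6 members in the deposited ratios. In WR alone Gabrb2 lay further from 0 (-0.23 against -0.20), and with normexp correction and loess Gabra3 was nearer to 0 than Gabrb2 in WR and than Gabra4 in both comparisons. The pattern of Gabra3 over the 4 chips was set against 5916 other named genes well above background. The smallest Euclidean distances were those of Fam234a (0.119), Creld2 (0.123) and Tspan1 (0.125), where the median distance was 0.636. Their log2 ratios were 0.0032, -0.42, -0.080 and -0.33 for Fam234a, 0.072, -0.33, -0.047 and -0.38 for Creld2, and -0.096, -0.36, 0.00085 and -0.40 for Tspan1. Each was low on chips 2 and 4, where the running pool carried Cy3, and near 0 on chips 1 and 3, as Gabra3 was. This likeness follows from the choice of these genes by the same 4 values. The distance is taken over 4 chips that share dyes and pools, and it is a description only.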

How the data were processed

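Hippocampal RNA pools of Sed, WR and RWR rats were measured on 4 chips of a 2-colour rat oligo array, with groups and dyes taken from the labels of each channel. Scans were processed by the authors in Feature Extraction 11.0.1.1 (background subtraction with spatial detrending, LOWESS dye normalization). The deposited intensity is the processed signal of each dye, and the deposited log10 ratio sets Cy5 over Cy3 and comes with its error. The deposited p-value rests on the error model of a single chip. The series matrix deposited by the authors holds log10 ratios of the processed signals, not turned for the swap.

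Here control spots and 118 to 140 outlier spots per chip were left out, and 0 spots were saturated. Ratios were turned to running over sedentary, put on the log2 scale and averaged over the spots of a probe. The mean of a swapped pair is the running part, the distance of either chip from it (chip deviation) the dye part, and the error of the mean follows from the deposited errors. Each of the 6 measured members had 1 probe. A gene with several probes is represented by the brightest. The flag for well above background was set for 67.5% to 77.6% of spots in Cy3 and 71.7% to 82.5% in Cy5. A probe was called by the fold limits (1.5 and 0.75) and the p limit (0.01) of the methods, both required on each chip of a pair, which is a choice made here. Accessions of the array, designed on rn4, were matched to the RefSeq table of GRCr8, used for names and gene order; promoter sequences are those of RefSeq with GRCr8 coordinates. Some GABA-A subunits are not reported here. Gene lists other than the members name the detected subunits reported and, per list and comparison, the 2 genes with the largest mean ratio among those on the same side of 0 on both chips. The members and lists were chosen with earlier results of these data known. Alternatives were other p limits, normexp (offset 50) or no background correction with loess in limma 3.58.1 under R 4.3.3, median centring, the series matrix values, the median over probes, a filter on dim probes and each chip left out. Other steps used Python 3.11.15, pandas 2.3.3, numpy 2.4.6 and scipy 1.17.1.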

Additional observations from a re-analysis of the deposited data

Results flagged for a closer look

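Zdhhc3, which adds palmitate to receptor subunits, had both chips of WR on one side of 0 and both chips of RWR on the other. Its log2 ratios were 0.059 and 0.090 in WR and -0.024 and -0.034 in RWR, a difference of RWR over WR of -0.10. The WR mean of 0.074 was smaller than its error of 0.15. The share of all probes with this pattern is not given here, and the difference between the running modes was not tested.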

How the results depend on the processing

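The number of members called was 0 in WR and in RWR under every alternative run, each chip left out included. With a chip of the WR pair left out, the median of the 6 members in WR was -0.030 (without chip 1) and -0.015 (without chip 2), in place of 0.0092. In RWR it was 0.060 without chip 3 and -0.033 without chip 4, in place of -0.0025, and for RWR over WR -0.013 without chips 1 and 3 and 0.039 without chips 2 and 4, in place of 0.016. Of 6 other settings, 3 could not change a member: each has 1 probe, all pass the filter on dim probes, and the series matrix holds the same ratios. Under the other 3 (both background settings with loess, and median centring) the medians moved by less than the spread between chips. For single members, 47 of 54 values under these 3 settings lay within that spread, and 50 of 54 kept the sign of the reported value. Median centring left the WR values as reported, so part of these counts was fixed in advance. The spread is the standard deviation of 2 chips and differed widely. Gabra3 in RWR went from -0.25 to -0.038 with normexp within its spread of 0.28. Gabra5 in RWR over WR went from 0.040 to 0.043 with median centring, beyond its spread of 0.0014. The counts are therefore no measure of robustness. Of 36 values from a single chip per pair, 9 had the other sign. Without chip 2 the WR value of Gabra3 was -0.0036, and without chip 4 its RWR value was -0.059. Without chip 1 its WR value was -0.39, and without chip 3 its RWR value was -0.45. No paired analysis was possible because each group is 1 pool and no result comes from a test. Differences between chips of the same dye orientation set the WR pool beside the RWR pool, and the swapped orientation is a technical repeat of the same pools. The error model gave Gabra3 and Gabrb2, the dim probes, larger errors than the other members, and the rats behind the pools cannot be separated. The cause of the shifts was not tested.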
